A study of Mus musculus with 6 samples.

Results

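Chemokines are small secreted proteins that draw white blood cells along a gradient. Ccl2 and Ccl7 are CC chemokines that attract monocytes through the receptor Ccr2. Cxcl1 and Cxcl2 attract neutrophils through Cxcr2, and Cxcl10, an interferon-inducible chemokine, attracts T cells through Cxcr3. Their transcripts are made by many cell types within hours of a signal from Tnf or Il1b, cytokines that activate the transcription factor NF-kB. Tnfaip3 (A20) is itself an NF-kB target and limits that signal. The values described here are those of these 8 genes, selected by name from the platform annotation, of 16675 genes on the array. Each had 1 probe, so all 8 probes are reported and no second probe of any of the 8 genes could be compared. The genes were chosen with the differences between treatments on the muscle and liver arrays already known, so those differences are a description and carry no test.

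The animals were ob/ob mice (B6.V-Lepob/J), which lack functional leptin and become obese and insulin resistant. After a 4 h fast, each mouse was given by mouth either MCSE, an aqueous extract of Momordica charantia (bitter melon) seeds, or phosphate-buffered saline (PBS). An intraperitoneal glucose load of 1 g/kg followed 15 min later, and muscle, adipose tissue and liver were taken 4 h after the glucose. All groups thus shared the strain, the fast and the glucose load, and the labels separate them by the oral dose and the tissue. Neither the age of the mice nor any pooling of RNA was given in the sources used here. There were 6 one-colour arrays, 1 for each of the 2 treatments under each of 3 tissue labels, so no difference between MCSE and PBS has a replicate check or a p-value. Levels are log2 intensities as deposited, with values below 7.74 raised to it, and differences are log2 MCSE minus PBS. The error attached to a difference is the SD of 1 probe, estimated from the disagreement between probes of the same gene. This SD was 0.517 for the muscle pair, 0.611 for the liver pair and 1.74 for the adipose pair. Variation between mice is not part of it. In whole tissue, fewer cells of a type and less RNA per cell cannot be told apart.

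The labelled tissues were checked against marker genes. Fast skeletal muscle genes had a median level of 15.87 on both muscle arrays and at most 9.37 on the other 4. The arrays labelled MCSE liver and MCSE adipose were close to duplicates (Pearson r = 0.982 over all probes), and the PBS adipose array stood apart from the other 5 (r between 0.307 and 0.517, against 0.752 or more among the rest). On those 2 arrays and on the PBS liver array, adipocyte genes had medians of 14.59 to 14.97, hepatocyte genes of 11.98 to 12.47 and kidney tubule genes of 11.56 to 12.82, so transcripts of several organs were present together. On the PBS adipose array, adipocyte genes had a median of 10.50, below the 12.98 and 12.94 of the PBS and MCSE muscle arrays. Fibroblast genes were lowest there (8.83) and lymphocyte genes highest (11.18, against 8.80 to 9.59 on the rest). Treatment and tissue content thus cannot be told apart on the adipose pair. For these reasons liver and adipose are used below as labels of arrays.

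The upstream sequences of 4 of the genes are shown because matches to the kappaB motif, the sequence that NF-kB binds, lie close to the start of each. Capitals mark matches to the degenerate 10-base kappaB consensus on either strand, within the 250 bases before the annotated start (RefSeq, GRCm38.p6, each written 5′ to 3′ on the strand of the gene).
Cxcl1, chr5:90890995-90891244, plus strand: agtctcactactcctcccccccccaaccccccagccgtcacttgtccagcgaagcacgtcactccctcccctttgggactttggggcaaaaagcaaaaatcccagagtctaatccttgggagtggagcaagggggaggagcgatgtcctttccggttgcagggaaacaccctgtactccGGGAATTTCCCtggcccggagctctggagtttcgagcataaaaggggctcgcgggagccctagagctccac
Cxcl2, chr5:90903649-90903898, plus strand: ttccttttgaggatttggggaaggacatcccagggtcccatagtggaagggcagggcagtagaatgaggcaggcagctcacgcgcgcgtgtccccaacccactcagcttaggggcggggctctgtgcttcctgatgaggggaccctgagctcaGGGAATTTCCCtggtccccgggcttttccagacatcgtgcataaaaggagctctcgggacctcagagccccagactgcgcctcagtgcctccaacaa
Cxcl10, chr5:92348890-92349139, minus strand: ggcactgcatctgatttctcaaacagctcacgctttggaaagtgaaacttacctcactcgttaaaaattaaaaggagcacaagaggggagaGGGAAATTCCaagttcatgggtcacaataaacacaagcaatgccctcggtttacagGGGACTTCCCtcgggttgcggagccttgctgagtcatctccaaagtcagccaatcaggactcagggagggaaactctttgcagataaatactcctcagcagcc
Tnfaip3, chr10:19015411-19015660, minus strand: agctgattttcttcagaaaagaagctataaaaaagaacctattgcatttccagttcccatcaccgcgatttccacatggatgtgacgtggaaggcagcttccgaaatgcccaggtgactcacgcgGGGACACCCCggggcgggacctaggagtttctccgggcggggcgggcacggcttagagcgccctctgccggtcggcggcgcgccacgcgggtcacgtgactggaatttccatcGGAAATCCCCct
Cxcl1 and Cxcl2, which are neighbouring protein-coding genes on chromosome 5, both held GGGAATTTCC, beginning 71 and 97 bases before the start. That exact sequence was read from the Cxcl1 match and then searched for, so Cxcl1 had to hold it and its rarity is no finding. Searched on both strands, it occurred in 28 of 32851 promoter entries (0.0852%), while the degenerate motif occurred in 1281 (3.90%). In Cxcl1 and Cxcl2 the matches on the 2 strands overlap, so that 11 bases are in capitals. Cxcl10 held 2 separate matches, beginning 159 and 103 bases before the start, and a TGANTCA match (the AP-1 motif, found in 6.75% of entries) at 74 bases. It also held the core of the interferon response element, 2 copies of TTTC with 2 bases of any kind between them, on the opposite strand 213 bases before the start. That motif was found in 2.98% of entries. Tnfaip3 held 2 kappaB matches in the entry shown, at 125 and 12 bases before the start, with TGANTCA at 136 and TATAAA at 225 bases. Its second entry held none of the motifs searched. Tnf and Il1b held no kappaB match in this window and a TATAAA match (found in 12.4% of entries) 29 and 31 bases before the start. Such matches describe letters in a window and are not measured binding sites. Promoter entries were matched for 6 of the 8 genes, which leaves Ccl2 and Ccl7, neighbours on chromosome 11, named only.

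The monocyte attractants were higher on the MCSE array under every label. Ccl2 lay at 8.85 (PBS) and 11.53 (MCSE) in muscle, at 10.42 and 14.16 on the liver arrays, and at 8.25 and 14.17 on the adipose arrays. The difference was 2.68 ± 0.517 in muscle (SD of 1 probe, 1 array per group), which is 6.43-fold, and 3.74 ± 0.611 on the liver pair, which is 13.4-fold. Each of the 3 MCSE arrays was above each of the 3 PBS arrays for this gene. The muscle and liver values were known at the choice, and the MCSE adipose array nearly duplicates MCSE liver. Such an order, here and for Ccl7 and Cxcl2 below, is therefore a description and not 3 separate checks. Ccl7 lay at 7.84 and 10.11 on the PBS and MCSE muscle arrays, at 9.09 and 12.90 on the liver arrays, and at the floor of 7.74 and at 12.76 on the adipose arrays. Its difference was 2.27 ± 0.517 in muscle (4.82-fold) and 3.81 ± 0.611 on the liver pair (14.0-fold), again with all MCSE arrays above all PBS arrays. On the PBS muscle array both genes were below the median of all probes (8.95), so the lower level is poorly defined there.

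The neutrophil attractants were likewise higher with MCSE in each pair. Cxcl1 lay at 8.58 and 11.17 on the PBS and MCSE muscle arrays, at 11.45 and 14.66 on the liver arrays and at 9.59 and 14.47 on the adipose arrays. That is a difference of 2.59 ± 0.517 in muscle (6.03-fold) and 3.21 ± 0.611 on the liver pair (9.27-fold). Unlike Ccl2 and Ccl7, Cxcl1 did not separate the treatments across labels, since the PBS liver array was above the MCSE muscle array. Cxcl2 lay at 7.96 and 9.58 in muscle, at 8.93 and 12.90 on the liver arrays and at 8.13 and 12.65 on the adipose arrays. Its difference was 1.61 ± 0.517 in muscle (3.06-fold) and 3.96 ± 0.611 on the liver pair (15.6-fold), and the 3 MCSE arrays were all above the 3 PBS arrays. Cxcl2 was below the median of 8.95 with PBS on both pairs, and Cxcl1 in muscle, so these folds are as loosely defined as those of Ccl2 and Ccl7. Among measured genes, ordered from the highest difference down, Ccl2, Cxcl1, Ccl7 and Cxcl2 were numbers 25, 27, 33 and 119 of 10711 in muscle. On the liver pair they were numbers 10, 26, 9 and 8 of 11342. Measured here means at or above the median of all probes on 1 or both arrays of the pair.

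**Figure D1:**
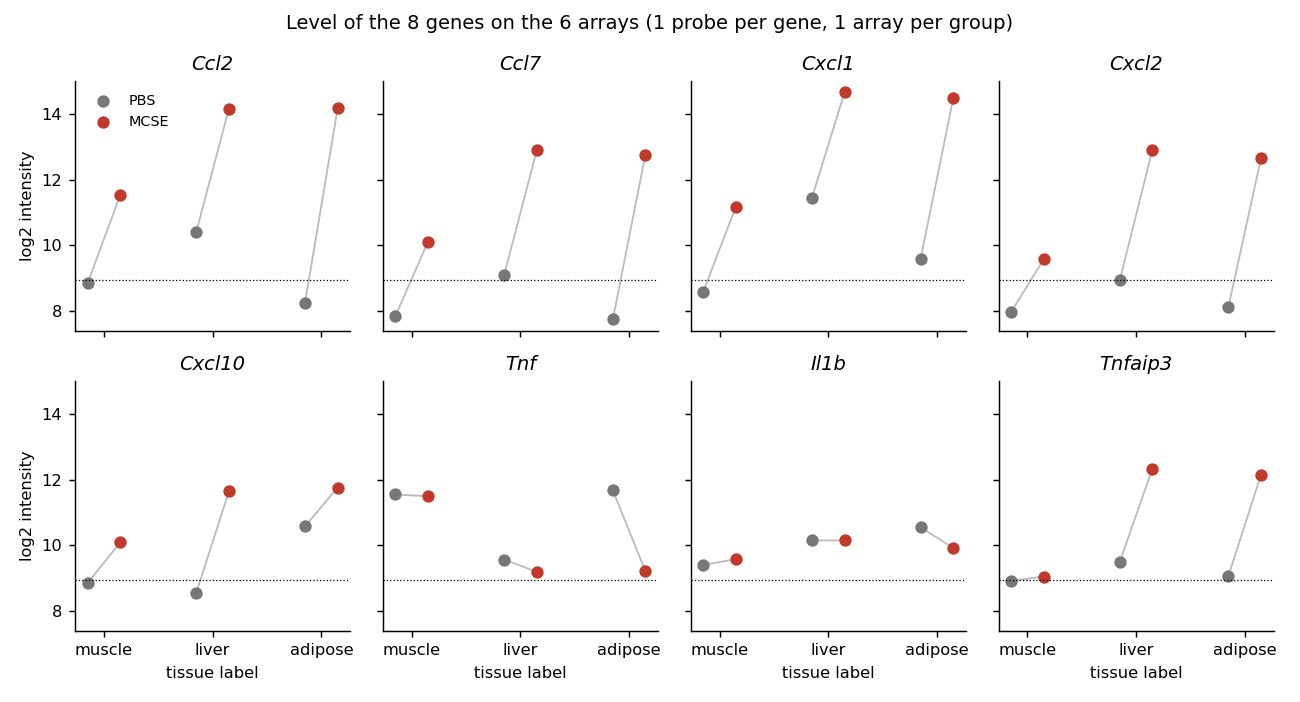
Log2 intensity (y axis) of each of the 8 genes on the 6 arrays, by tissue label (x axis), with PBS in grey, MCSE in red, a line joining the arrays of 1 label and a dotted line at the median of all probes (8.95). Each point is 1 probe on 1 array, with no error bar. Ccl2, Ccl7 and Cxcl2 were higher on every MCSE array than on any PBS array, while Tnf and Il1b hardly differed within muscle and liver.

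Cxcl10 was higher with MCSE in each pair, though on the adipose pair by less than the probe error (1.18 ± 1.74). Tnfaip3 was higher on the liver and adipose pairs and level in muscle. Cxcl10 lay at 8.85 and 10.09 on the PBS and MCSE muscle arrays, at 8.56 and 11.65 on the liver arrays, and at 10.58 and 11.76 on the adipose arrays. Its difference was 1.24 ± 0.517 in muscle (2.37-fold) and 3.09 ± 0.611 on the liver pair (8.50-fold), with both PBS levels below the median of 8.95. Because the PBS adipose array was brighter than the MCSE muscle array, the treatments overlapped across labels. Tnfaip3 lay at 8.92 and 9.05 on the PBS and MCSE muscle arrays, at 9.49 and 12.32 on the liver arrays, and at 9.07 and 12.16 on the adipose arrays. The difference was 0.13 ± 0.517 in muscle, within the SD of 1 probe, with both levels close to the median of 8.95, and 2.83 ± 0.611 on the liver pair (7.11-fold). With 1 array per group, the gap between the muscle and liver differences of Tnfaip3 could not be tested.

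The upstream cytokines did not differ with MCSE by more than the probe error in muscle or liver. Tnf lay at 11.55 and 11.49 on the PBS and MCSE muscle arrays, at 9.57 and 9.20 on the liver arrays, and at 11.67 and 9.21 on the adipose arrays. The difference was -0.06 ± 0.517 in muscle and -0.37 ± 0.611 on the liver pair. Tnf was thus highest on the PBS adipose array and both muscle arrays, and lowest with MCSE on the liver and adipose labels, where the 4 attractants were highest. Il1b lay at 9.40 and 9.58 on the PBS and MCSE muscle arrays, at 10.15 on both liver arrays, and at 10.55 and 9.92 on the adipose arrays. Its difference was 0.18 ± 0.517 in muscle and 0.00 ± 0.611 on the liver pair, and it ranged less over the 6 arrays than any other of the 8 genes.

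In all, 5 of the 8 genes passed 2-fold upward with MCSE in muscle and 6 of the 8 on the liver pair, and 0 passed it downward on either. Of all 16675 genes, 2.51% were called higher in muscle and 5.63% on the liver pair, where a call required a 2-fold difference and a level of at least the median probe on 1 or both arrays. The corresponding shares of genes called lower were 1.21% and 4.09%. As the members were picked on these differences, nothing is read from the contrast with those shares. The 5 called higher in muscle (Ccl2, Ccl7, Cxcl1, Cxcl2 and Cxcl10) were also called higher on the liver pair, as were 101 genes in all (0.606%). Both differences were known when the members were picked, so this too is a description. All 8 genes passed the brightness condition in muscle, but Ccl2, Ccl7, Cxcl1, Cxcl2, Cxcl10 and Tnfaip3 did so through the MCSE array alone.

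**Figure D2:**
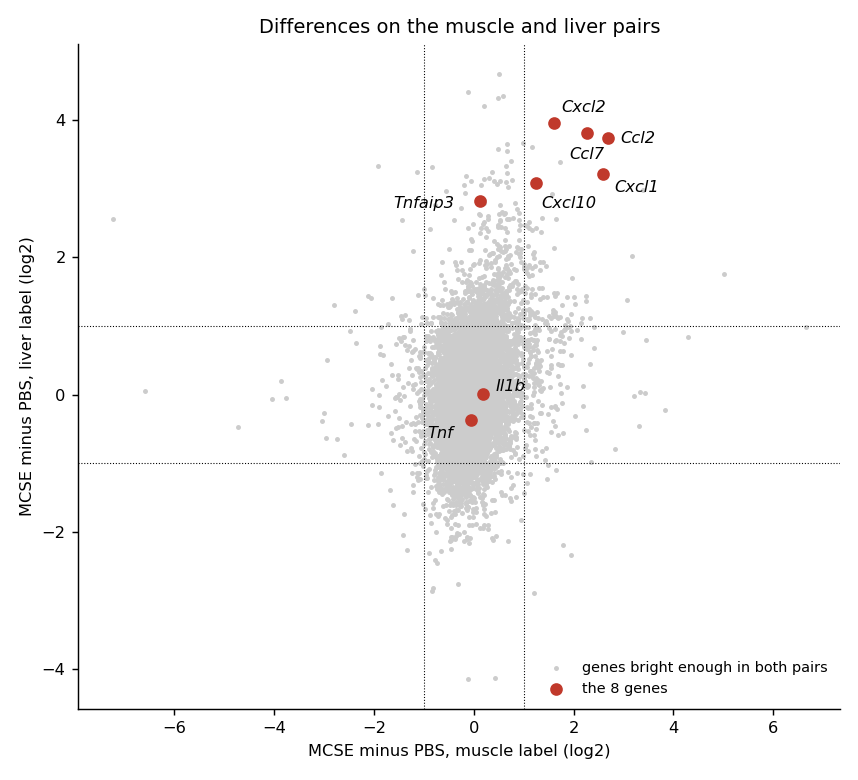
Difference between MCSE and PBS in log2 units on the muscle pair (x axis) and on the liver pair (y axis), with 1 array per group. Grey points are genes at or above the median of all probes in both pairs, red points are the 8 genes, and dotted lines mark 2-fold. Ccl2 (2.68 and 3.74), Ccl7, Cxcl1, Cxcl2 and Cxcl10 lie past 2-fold on both axes, Tnfaip3 (0.13 and 2.83) on the liver axis alone, and Tnf and Il1b near the origin.

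The adipose arrays were not used to choose the genes, and 1 of them nearly duplicated an array that was. The values of MCSE adipose stood close to those of MCSE liver for all 8 genes, with gaps (adipose minus liver) between -0.25 for Cxcl2 and 0.12 for Cxcl10. With PBS, the 4 attractants lay between 7.74 (Ccl7) and 9.59 (Cxcl1) on the adipose array, near their range of 7.84 to 8.85 in muscle. On this pair 29.6% of all genes were 2-fold higher and 27% were 2-fold lower, and 6 of the 8 genes were called higher and 1, Tnf, lower. The Tnf difference there was -2.46 ± 1.74.

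The tissue labels were compared with limma, taking the PBS and MCSE array of a label as its 2 samples, in 1 fit to all 6 arrays. This contrast did not enter the choice of genes, but the differences between treatments that did are its spread within a label. Genes picked for a large difference thus had little room to pass. Tnf, known to differ little within muscle and liver, had more room, so its p-values are no separate support. None of the 8 genes passed between the muscle and liver labels (0 of 8 at an adjusted p under 0.05 and 2-fold, 1 of 8 at an unadjusted p under 0.05), against 47 of 12475 genes tested (0.377%). Tnf, the 1 gene with an unadjusted p under 0.05, was 2.14 ± 0.86 (SE) higher in muscle than on the liver arrays, with an adjusted p from limma of 0.581. Its arrays did not overlap between the labels. With either adipose array left out, the Tnf estimate was again 2.14. Its error then came only from the muscle and liver pairs, whose differences were known when the genes were picked. With any 1 muscle or liver array left out, 0 genes passed with limma (300 to 462 at an unadjusted p under 0.05). Cxcl1 was -3.18 ± 1.91 (SE) in muscle relative to the liver label, with every liver array above every muscle array, and an adjusted p from limma of 0.634. Ccl2 was at -2.10 ± 2.22 and Ccl7 at -2.01 ± 1.99, with overlapping arrays. Their spread within a label is the gap between its PBS and MCSE arrays, which was large for both genes. The order of levels for the 4 attractants was the same at its upper end: MCSE liver and MCSE adipose were the brightest arrays for each gene and differed by at most 0.25, less than the probe error. Lower down, the PBS liver array was above the PBS muscle array by 1.57 for Ccl2, 1.24 for Ccl7, 2.86 for Cxcl1 and 0.97 for Cxcl2.

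Of 26 other chemokine genes on the array, 3 were called higher in muscle (background 2.51%) and 3 on the liver pair (background 5.63%), with 0 and 1 called lower and medians of 0.20 and 0.14 beside -0.03 and -0.02 over all genes. In muscle these were Ccl5, a T-cell attractant (1.31), Ccl9 (1.21) and Ccl12, a monocyte attractant close to Ccl2 (1.10). On the liver pair they were Cxcl3 (1.66), which like Cxcl1 acts on neutrophils, Ccl3, a macrophage inflammatory protein (1.29), and Ccl12 (1.25). Ccl12 was the 1 gene in both groups. Ccl22, made by dendritic cells and macrophages, was at -1.33 on the liver pair. Of the 2 other interferon-inducible ligands of Cxcr3, Cxcl9 did not share the Cxcl10 pattern, at -0.10 in muscle and -0.44 on the liver pair. Cxcl11 was at 0.15 and -0.19. Its levels on the muscle and liver arrays were between 8.18 and 8.38, all below the median of all probes. A difference could be missed there, so whether Cxcl11 shared the pattern cannot be told.

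Of 21 chemokine receptor genes on the array, 10 and 12 were bright enough to be called in muscle and on the liver pair. In muscle 0 were called (background 2.51% higher and 1.21% lower), and on the liver pair (background 5.63% and 4.09%) Ccr1 was higher (1.13) and Blr1 (now Cxcr5), a B-cell receptor, lower (-1.06). The medians were -0.03 and -0.09. Ccr2, which binds Ccl2 and Ccl7 on monocytes, lay at 8.05 and 8.22 on the PBS and MCSE muscle arrays and at 9.25 and 9.38 on the liver arrays. Il8rb (now Cxcr2), the neutrophil receptor of Cxcl1 and Cxcl2, differed by 0.10 in muscle and -0.09 on the liver pair, and Cxcr3 by -0.17 and -0.51. These differences were within the probe error, but Ccr2 in muscle and Il8rb on the liver arrays lay below the median of 8.95, where a difference could be missed.

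Of 31 genes of the pathway from Il1b, Tnf and the Toll-like receptors to NF-kB on the array, 1 was called higher in muscle (background 2.51%), Il18, a cytokine of the Il1 family (1.39), and the median was 0.06. On the liver pair 3 were higher (background 5.63%) and 1 lower (background 4.09%), with a median of 0.05. Rela, the main activating subunit of NF-kB, was 2.08 higher, Tlr2, a receptor for bacterial lipoproteins, 1.67 and Cd14, a co-receptor for endotoxin, 1.28, while Traf2, an adaptor of the Tnf receptor, was at -1.56. Rela lay at 9.68 (PBS) and 11.75 (MCSE) on the liver arrays, and at 10.24 and 10.83 in muscle. The receptors Il1r1 and Tnfrsf1a differed by 0.01 and 0.38 in muscle and by 0.59 and 0.19 on the liver pair, and Il1a by 0.05 on each.

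Among NF-kB targets other than the 8 genes, 31 were on the array. Of these, 10 were called higher (background 5.63%) and 1 lower (background 4.09%) on the liver pair. The median there was 0.46, with 21 of the 31 above 0, and no error was attached to it. The steepest were Zfp36, which shortens the life of cytokine messenger RNA (2.62), Csf1, the growth factor of macrophages (2.15), Cd83, an activation marker of dendritic cells (1.84) and Irf1, a transcription factor (1.48). Lcn2, an acute phase protein, was lower at -1.73. In muscle 2 of the 31 were called higher (background 2.51%) with a median of 0.12: Ptgs2, the inducible cyclooxygenase (1.63), and Csf3, the growth factor of neutrophils (1.24). Neither was 2-fold higher on the liver pair, where Ptgs2 was at -0.47 and Csf3 at 0.45. Nfkbia, the inhibitor that NF-kB itself induces, was bright on these 4 arrays and differed by -0.07 in muscle and 0.17 on the liver pair. Of 24 interferon targets, 16 and 20 were bright enough to be called in muscle and on the liver pair, and 0 were called on either. The background was 2.51% higher and 1.21% lower in muscle, and 5.63% and 4.09% on the liver pair. In so short a list a count of 0 is near those shares. The median was -0.01 on both pairs, and Cxcl10 differed by 1.24 and 3.09.

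**Figure D3:**
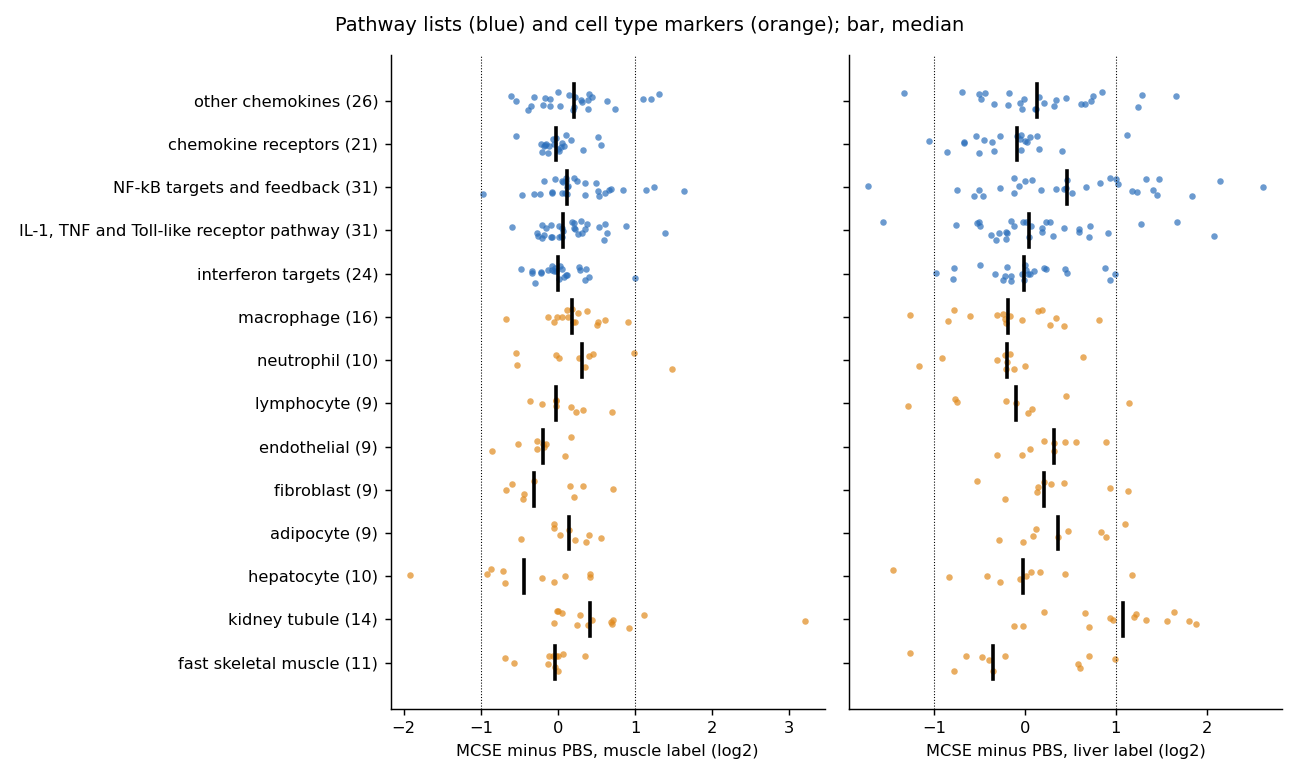
Difference between MCSE and PBS in log2 units (x axis) for each gene of 5 pathway lists (blue) and 9 cell type marker lists (orange), on the muscle pair (left) and the liver pair (right). Each point is 1 gene, black bars are medians, dotted lines mark 2-fold, and the number of genes on the array follows each list name. The median of kidney tubule markers was 0.41 and 1.08, that of NF-kB targets 0.12 and 0.46, and that of interferon targets -0.01 on both.

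Markers of the white blood cells that these chemokines attract are given beside them. Over all genes, 2.51% were called higher and 1.21% lower in muscle, and 5.63% and 4.09% on the liver pair. In lists this short, counts of 0 or 1 cannot be told from those shares. Of 16 macrophage genes, 0 were called higher on either pair and 1, Ctss, was called lower on the liver pair (-1.27), with medians of 0.18 and -0.19. The log2 of their summed intensity was 13.86 and 14.08 on the PBS and MCSE muscle arrays and 16.37 and 15.93 on the liver arrays. Of 10 neutrophil genes, S100a9 was higher in muscle (1.48) and S100a8 lower on the liver pair (-1.16), with medians of 0.31 and -0.20. Their summed intensity was 13.22 and 13.72 on the muscle arrays and 14.77 and 14.00 on the liver arrays. Of 9 lymphocyte genes, 0 were called in muscle, and Cd3g was lower on the liver pair (-1.29). Their summed intensity was 12.62 and 12.72 in muscle and 12.60 and 12.19 on the liver arrays. Summed intensities are carried by the brightest members, and the medians did not always move with them: the macrophage median level was 10.51 and 10.72 on the PBS and MCSE liver arrays, and the neutrophil median 9.49 and 9.47 in muscle. The part of these cells in the chemokine differences was not tested.

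Of the 9 marker lists, kidney tubule genes had the most members called higher on each pair. Of 14 on the array, 2 were called higher in muscle (background 2.51%) and 7 on the liver pair (background 5.63%). The log2 of their summed intensity was 12.82 and 14.00 on the PBS and MCSE muscle arrays and 17.09 and 17.83 on the liver arrays. Kap, an abundant transcript of the proximal tubule, was 3.20 higher in muscle and at -0.02 on the liver pair. Umod, of the thick ascending limb, was 0.70 higher in muscle and 1.81 on the liver pair. The part of kidney RNA in the chemokine differences was not tested. Endothelial genes had medians of -0.20 and 0.31, fibroblast genes -0.31 and 0.21, adipocyte genes 0.14 and 0.36 and hepatocyte genes -0.45 and -0.03.

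The profile of the 4 attractants over the arrays was set beside those of other genes. After each gene was centred on its own mean, Ccl7, Cxcl2, Ccl2 and Cxcl1 lay at a root-mean-square distance of 0.15, 0.30, 0.34 and 0.39 log2 units from their joint mean. Each is a part of that mean and all 4 were picked for like differences, so this closeness is no finding. Leaving out these 4, the 5 nearest of 13862 genes compared were Gem, a small GTPase (0.63), Cyba, a subunit of the phagocyte oxidase (0.72), the uncharacterised transcript 6330417G02Rik (0.80), the transcription factor Myc (0.80) and Csf1 (0.83). Tnfaip3 came at 0.92, number 21 of 13862, and Cxcl10 at 1.46, number 639. Il1b (2.17) and Tnf (3.16) were far from it. Over the 6 arrays the Pearson r with the joint profile was 0.96 for Gem, 0.95 for Cyba, 0.94 for Tnfaip3, 0.76 for Cxcl10, 0.07 for Il1b and -0.82 for Tnf. In all, 375 of 13862 genes reached an r of 0.9, and none of the 5 genes nearest by distance was among the 5 highest by r. Without the PBS adipose array 3 of the 5 (Gem, 6330417G02Rik and Cyba) were still among the nearest, joined by Ptx3 and Tnfaip3. The muscle differences of the 5 nearest genes were 0.33 for Gem, 0.73 for Cyba, 0.27 for 6330417G02Rik, 0.53 for Csf1 and 1.24 for Myc. All were smaller than those of the 4 chemokines. On the PBS and MCSE muscle arrays, however, Gem lay at 8.26 and 8.59 and 6330417G02Rik at 7.74 and 8.01. These levels are below the median of all probes, where a difference could be missed. Whether Gem and 6330417G02Rik differed less in muscle than the chemokines thus cannot be told.

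**Figure D4:**
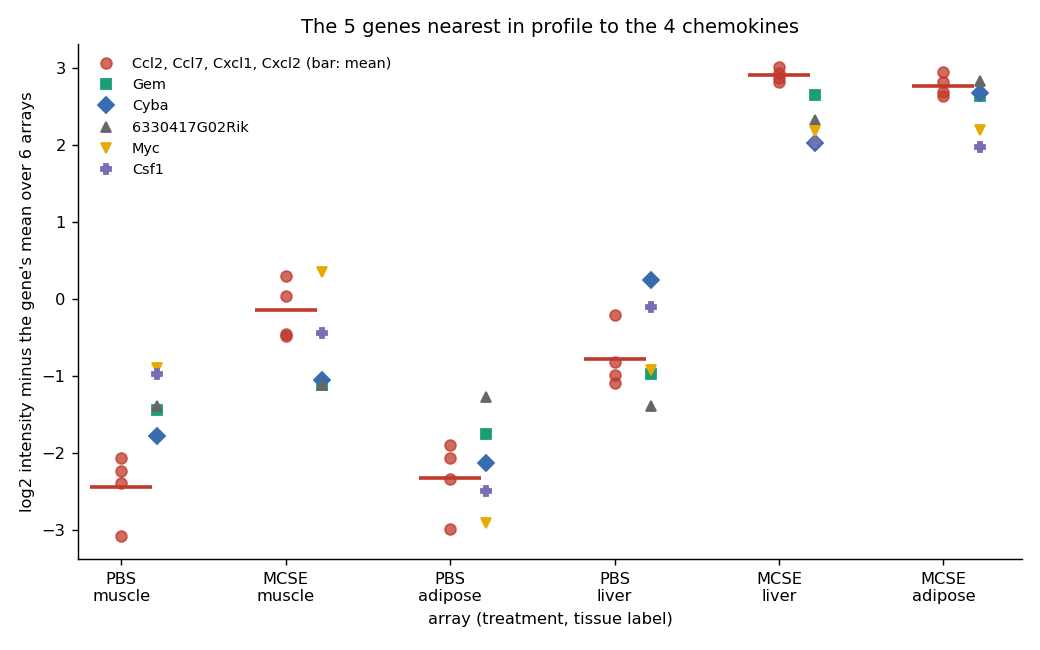
Log2 intensity minus the mean of the gene over the 6 arrays (y axis) on each array (x axis), for Ccl2, Ccl7, Cxcl1 and Cxcl2 (red points, with their mean as a bar) and for the 5 genes nearest to that mean. All 9 genes are highest on the arrays labelled MCSE liver and MCSE adipose. In MCSE muscle Gem (8.59) and Csf1 (10.15) lie closer to their PBS muscle levels (8.26 and 9.62) than the chemokines do. Both muscle levels of Gem are below the median of all probes, where a difference could be missed.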

How the data were processed

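RNA of 6 samples (3 tissue labels, 2 treatments, 1 array each) was amplified and labelled with Cy5 for one-colour arrays, per the labels' protocols. The authors deposited normalized intensity values on a linear scale for 29922 probes. Per the submitters' processing notes limma was used, in a role not stated. How background and normalization were handled, and the genome build, are not given in the sources used here. All 6 columns share a median log2 value of 8.95, so the arrays had been brought to 1 distribution, which can stretch a weak array. Precision is limited by the number of arrays.

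Intensities were raised to the 5th percentile (214.2) and log2 was taken. The platform annotation gave a symbol for 21020 probes and none for 8902, with no probe of several symbols. It can be old, so lists were matched through RefSeq synonyms. Genes were represented by their brightest probe and called at 2-fold when at or above the median on at least 1 array of a pair. The SD of 1 probe came from 1504 (muscle), 1653 (liver) and 2066 (adipose) genes with 2 measured probes. Tissue labels were compared in R 4.3.3 with limma 3.58.1 (lmFit, eBayes, Benjamini-Hochberg, 3 residual degrees of freedom). The scripts were tested on simulated data. Alternatives were quantile normalization, centring, lowess, mean over probes, no floor, 32 added before log2, other filters and folds, treatment as a term, a trended eBayes prior and each array left out in turn.

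The members and lists were chosen with earlier results of these data known. All probes of the 8 genes were named, then up to 4 genes past 2-fold per pathway list and pair, and the 5 genes nearest in profile. Receptors, pathway genes and markers below 2-fold were named for their role, with values seen. Python 3.11.15, numpy 2.4.6, pandas 2.3.3, statsmodels 0.14.6 and matplotlib 3.10.9 were used.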

Additional observations from a re-analysis of the deposited data

Results flagged for a closer look

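The adipose pair was not part of the choice of genes, but its MCSE array nearly duplicates the MCSE liver array, which was, so these values are no separate support. The difference between MCSE and PBS on this pair exceeded the SD of 1 probe there (1.74) upward in 5 of the 8 genes: Ccl2 was 5.92 higher on the log2 scale, Ccl7 5.02, Cxcl1 4.88, Cxcl2 4.52 and Tnfaip3 3.09. Tnf exceeded it downward, at -2.46. Most genes differed on this pair, with 29.6% of all genes called 2-fold higher and 27% called 2-fold lower.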

How the results depend on the processing

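The 16 differences of the 8 genes on the muscle and liver pairs moved by less than the SD of 1 probe under all 6 alternatives that apply to them. Ccl2 stayed between 2.60 and 2.74 in muscle and between 3.71 and 3.79 on the liver pair. The mean over probes and no floor could not move them, as each gene had 1 probe and no value on these pairs lay at the floor. Quantile normalization could hardly do so, as the arrays already shared 1 distribution. The count of members 2-fold higher in muscle (5) was 2 when genes had to reach the upper quartile of all probes, which removes dim genes by construction, and 3 at a 4-fold threshold. The background count was 1016 in muscle and 2275 on the liver pair at 1.5-fold, and 47 and 151 at 4-fold, against 418 and 938. The tissue comparison (47 genes with limma, 1067 at an unadjusted p under 0.05) gave 0 genes with treatment as a term (1183 at an unadjusted p under 0.05), and between 0 and 3099 with 1 array left out. It gave 3099 without either adipose array, and 0 without either array labelled muscle or either labelled liver, where the lone array left is assumed to vary like the other groups. The cause of those shifts was not tested. Of the 5 genes nearest in profile, 3 stayed without the PBS adipose array and 0 were among the 5 highest by Pearson correlation. The labels carry no replicate numbers, so the fit with treatment as a term, which pairs the arrays of a treatment across labels, is the 1 blocked fit run. Signal over background could not be judged, as no detection calls were used.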
